A study of Oryza sativa with 6 samples.

Results

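The narrow recurrent HMG-GFP sites are places in the rice genome where a short peak stood at the same position in each of 3 immunoprecipitates. Peaks of the 3 lists on the 12 nuclear chromosomes were merged wherever they overlapped by at least 1 bp. A merged region was kept if it held a peak of every replicate and was at most 600 bp wide. Of 60991 merged regions, 35791 held a peak of each replicate, and 2721 of these were narrow (7.60% of the shared regions). They were set beside the 20841 shared regions that were 1 to 3 kb wide. Width and presence in all 3 lists chose the members, so the widths, folds and distances below are descriptions of what was chosen and carry no test, except where a replicate was held out of the choice.

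Chromatin immunoprecipitation sequencing (ChIP-seq) was done on leaf blades of rice (Oryza sativa) plants carrying HMG-GFP, by its name and the series title a fusion of OsHMGB1 to green fluorescent protein. By its title, the series concerns the part of the protein in plant growth and phosphate homeostasis. The 6 samples form 2 groups, 3 immunoprecipitates (IP) taken with an antibody against GFP and 3 inputs without antibody, and all came from HMG-GFP seedlings kept for 28 d under conditions labelled HP. The data are 1 peak list per IP replicate, and the inputs were not analysed on their own. The labels name neither the promoter that drives the fusion nor the number of plants behind a replicate, so spreads between replicates may be technical. Plants without the fusion were not among the samples, so a recurring peak is not by itself shown to be HMG-GFP binding.

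High mobility group B (HMGB) proteins are abundant chromatin proteins. Their HMG box inserts into the minor groove of DNA and bends it, with little preference for sequence, and they are known to help other proteins assemble on DNA and to loosen the contact between DNA and nucleosomes. Plant HMGB proteins carry a single HMG box between a basic and an acidic stretch. The narrow sites are the end of the range of peak widths, where the enrichment was confined to at most 600 bp in every replicate.

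Most of the narrow regions lay at the upper limit of their class. There were 1908 of 600 bp (70.1%), 775 of 400 bp (28.5%) and 38 of 200 bp (1.40%). Peak borders fall on a grid of 200 bp, so no other widths occur. Just outside the limit lay 2388 shared regions of 800 bp. The median fold enrichment, a linear value that the authors give for each peak, was 3.54, 2.79 and 2.26 in replicates 1, 2 and 3 for regions of 600 bp. For those of 800 bp it was 3.70, 2.78 and 2.23. The limit of 600 bp therefore cut through a continuous range and did not fall on a step in the data. Together the narrow regions took up 1.46 Mb. This was 0.392% of the chromosomes' span of 373 Mb and 1.53% of the length of all shared regions.

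Each of the 2721 narrow regions was made of exactly 1 peak from each replicate. Peaks of one list are at least 800 bp apart, so the width limit allows nothing else. The 3 peaks shared a common stretch in all 2721, with a median of 400 bp, and this stretch made up 84.2% of the merged length, against 67.9% in the 1 to 3 kb regions made of 1 peak from each replicate. In 1676 narrow regions (61.6%) the peaks of the 3 replicates had the same start and the same end. The share over all shared regions was 20.4%, and it was 18.4% in the 1 to 3 kb regions. The grid leaves few choices at this width: only 23 combinations of the 3 peak widths occurred among narrow regions, and 1725 among the 1 to 3 kb regions, so the higher share of equal borders follows at least in part from the rule.

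The commonest combination was 600 bp in all 3 replicates, in 997 regions, followed by 400 bp in all 3, in 645. In another 432 the peak was 400 bp in replicates 1 and 2 and 600 bp in replicate 3. The replicate 3 peak filled the whole region in 95.8% of narrow regions, the replicate 2 peak in 74.3% and the replicate 1 peak in 67.7%. Replicate 3 had a peak wider than both others in 564 narrow regions (20.7%), and replicate 1 in 30 (1.10%). These shares were lower than elsewhere. Over all shared regions they were 42.1% and 6.14%, and in the 1 to 3 kb regions 45.3% and 4.43%. The limit of 600 bp removes every site where 1 replicate has a wider peak, so the lower shares follow at least in part from the rule. Replicates 1 and 2 had equal borders in 81.9% of narrow regions, replicates 2 and 3 in 72.8% and replicates 1 and 3 in 66.2%. The same order held in the 1 to 3 kb regions, with 56.8%, 30.1% and 23.1%.

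Fewer of the narrow merged regions than of the wider ones held all 3 replicates. Of all 9160 merged regions of at most 600 bp, 4070 held a peak of 1 replicate (44.4%), 2369 of 2 replicates (25.9%) and 2721 of all 3 (29.7%). Of the 32815 merged regions 1 to 3 kb wide, 63.5% held all 3. A region grows as peaks are merged into it, and a wide peak meets others more easily, so these shares describe the lists and were not tested. Among the 2369 narrow regions with 2 replicates, 1700 were of replicates 1 and 2, 561 of replicates 2 and 3 and 108 of replicates 1 and 3. Replicate 3 was thus the list most often missing. Regions of at most 600 bp held by both other replicates numbered 7350 with replicate 3 left out, 3399 without replicate 1 and 3069 without replicate 2, so the number of narrow sites rests on the third list.

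Seen from each list, the members were a part of the narrow peaks. Replicate 1 had 12899 peaks of at most 600 bp, of which 2721 became narrow shared regions (21.1%) and 5948 (46.1%) fell into wider regions shared by all 3 replicates. Replicate 2 had 10615 such peaks, of which 25.6% became narrow shared regions and 36.1% fell into wider shared regions. Replicate 3 had 6126, of which 44.4% became narrow shared regions and 21.5% fell into wider ones. A narrow peak of replicate 1 was therefore more often part of a region that was wider in another list than a member.

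Among the narrow peaks of replicate 1, members had a median fold of 3.53, those inside wider shared regions 3.596, those met by 1 other replicate 2.88 and those met by none 2.73. In replicate 2 the medians were 2.80, 2.77, 2.193 and 2.15 in the same order. In replicate 3 they were 2.29, 2.16, 2.06 and 1.99. In each list the narrow peaks that recurred in all 3 replicates had higher folds than those that did not, and in replicates 1 and 2 members and narrow peaks inside wider regions had similar folds. Recurrence was part of the rule, so this ordering is a description.

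The narrow regions had somewhat higher folds than the 1 to 3 kb regions in every replicate. In replicate 1 the median fold was 3.53 in narrow regions (quartiles 2.94 and 4.31) and 3.32 in the 1 to 3 kb regions (2.63 and 4.09). In replicate 2 it was 2.80 (2.34 and 3.34) against 2.46 (2.05 and 2.97). In replicate 3 it was 2.29 (1.95 and 2.71) against 2.06 (1.76 and 2.403). The difference in medians was 0.21, 0.34 and 0.24, a mean of 0.26 ± 0.067 (SD, n = 3). The quartile ranges of both classes overlapped widely in each replicate. The size of the difference depended on replicate 3 and on the length of the lists: without replicate 3 it was 0.44 in replicate 1 and 0.45 in replicate 2, and with lists of equal length it was 0.55, 0.49 and 0.35 in replicates 1, 2 and 3. The SD between replicates does not cover these shifts. With only peaks of a fold of at least 2 kept in all 3 lists before merging, the 3 differences were -0.12, 0.12 and 0.14. The direction in replicate 1 thus changed with this filter. The filter also changes which regions are members through the other lists, and the cause of the change was not tested.

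**Figure D1:**
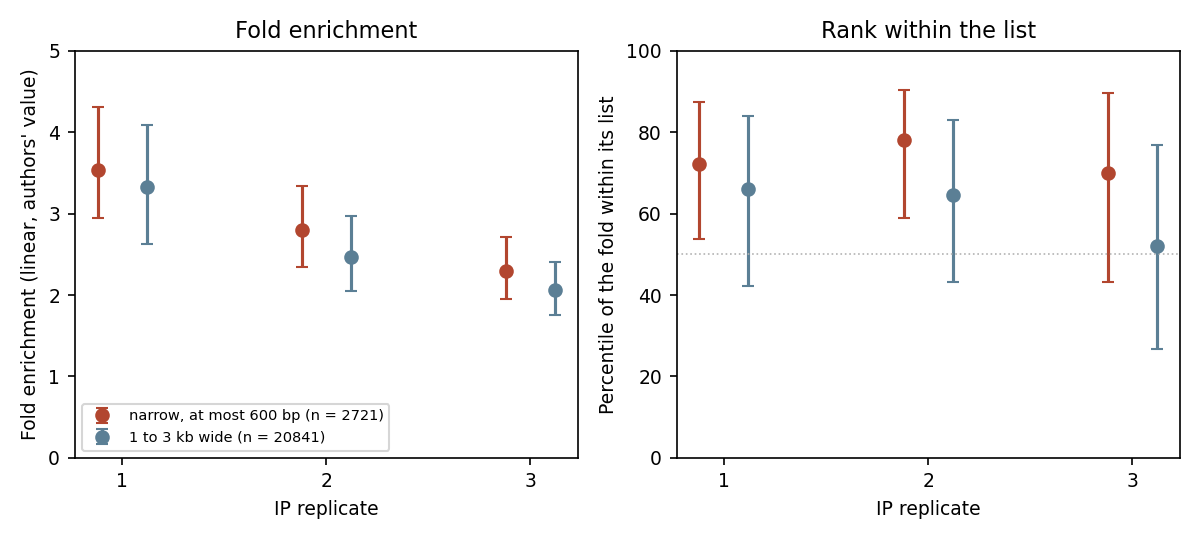
Fold enrichment as given by the authors (left, linear) and its percentile among all peaks of the same list (right), for narrow shared regions and shared regions 1 to 3 kb wide in the 3 IP replicates. Points are medians over regions and bars run from the lower to the upper quartile; the narrow medians are higher in each replicate, 3.53 against 3.32, 2.80 against 2.46 and 2.29 against 2.06, and the bars overlap.

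Folds of different lists need not share a scale, and each was therefore also ranked among all peaks of its own list. The median narrow region stood at percentiles 72.1, 78.0 and 69.9 in replicates 1, 2 and 3. The median 1 to 3 kb region stood at 66.1, 64.7 and 52.1. The difference was 6.03, 13.3 and 17.8 points, a mean of 12.4 ± 5.94 (SD, n = 3), smallest in replicate 1 and largest in replicate 3. Low ranks were rare among narrow regions: 20, 2 and 53 of the 2721 lay in the lowest 10% of their list in replicates 1, 2 and 3 (0.735%, 0.0735% and 1.95%). The background over all shared regions was 3.43%, 2.60% and 8.37%. Of the 20841 regions 1 to 3 kb wide, 779, 458 and 1795 did so (3.74%, 2.20% and 8.61%). The lower end of the fold was higher in short peaks whether members or not, as given below.

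The fold reached 2 or more in all 3 replicates in 1861 narrow regions (68.4%). The background over all shared regions was 49.9%, and it was 49.0% in the 1 to 3 kb regions. A fold in the top 10% of the list in all 3 replicates was found in 175 narrow regions (6.43%), with a background of 3.9% and 4.36% in the 1 to 3 kb regions. The fold lay above the list's median in all 3 replicates in 1473 narrow regions (54.1%; background 39.4%) and below it in all 3 in 108 (3.97%; background 16.4%).

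The ranking by p-value ran the other way. The median p-value given by the authors was 3.23e-43, 3.27e-31 and 4.18e-25 for narrow regions in replicates 1, 2 and 3, and 6.62e-94, 2.82e-59 and 5.14e-45 for the 1 to 3 kb regions. Ranked within each list, the median narrow region stood at percentile 36.1, 43.2 and 34.5 by p-value, where 100 is the most significant, and the median 1 to 3 kb region at 63.7, 64.0 and 53.6. The difference was -22.5 ± 4.47 points (SD, n = 3). Narrow sites thus had higher folds but less significant p-values than wider regions in all 3 replicates. The authors' p-values depended on width over all peaks, members or not. In peaks of 600 bp their median was 6.05e-45, 9.57e-28 and 4.7e-21 in replicates 1, 2 and 3. In peaks of 2200 to 3000 bp it was 3.26e-86, 2.82e-53 and 5.98e-57. The lists give no read counts, so the number of reads behind either class is unknown.

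The lists hold no peak with a false discovery rate above 1e-05, and the lower end of the fold depended on width in all peaks, members or not. In replicate 1, the fold that 5% of peaks lay below was 2.32 for peaks of 200 bp, 2.06 for 400 bp and 2.02 for 600 bp, and 1.52 for peaks of 2200 to 3000 bp. In replicate 2 it was 1.99, 1.74, 1.66 and 1.34, and in replicate 3 it was 1.78, 1.61, 1.55 and 1.38. The median fold of all peaks fell from 3.76 at 200 bp to 2.51 at 2200 to 3000 bp in replicate 1, from 2.91 to 2.02 in replicate 2 and from 2.53 to 1.95 in replicate 3. In still wider peaks the median went on falling in replicate 2, to 1.54 at 10 kb and over, and in replicate 1 it was 2.17 at 5200 to 9800 bp and 2.25 at 10 kb and over. In replicate 3 it rose again, to 1.99 at 3200 to 5000 bp, 2.05 at 5200 to 9800 bp and 2.134 at 10 kb and over (n = 157), much the same as the 2.131 of peaks of 600 bp. Up to 3 kb, a higher fold at short widths was thus found over all peaks of these widths, members or not. How far this lower end accounts for the members' higher folds was not tested beyond the values with a fold of at least 2 given above.

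**Figure D2:**
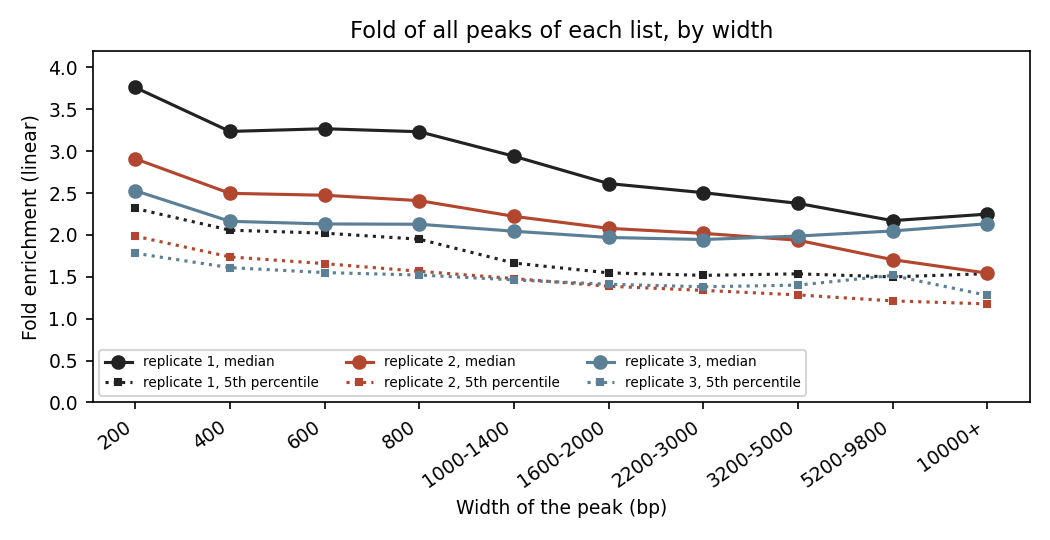
Fold enrichment of all peaks on the 12 nuclear chromosomes by peak width, for each IP replicate; solid lines with circles are medians and dotted lines with squares are the fold that 5% of peaks lie below. Both lines are lower at 2200-3000 bp than at 200 bp, the median at 2.51 against 3.76 in replicate 1; in replicate 3 they change least over these widths, and the median there rises again in wider peaks, to 2.134 at 10 kb and over.

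The rank correlation of the fold was lower across the narrow regions than across the wider ones for each pair of replicates. For replicates 1 and 2 the Spearman rho was 0.48 over the 2721 narrow regions and 0.68 over the 1 to 3 kb regions. For replicates 2 and 3 it was 0.48 and 0.57, and for replicates 1 and 3 it was 0.34 and 0.46. Regions share their libraries and are not independent, so no p-value is given. The coefficient rose with width up to 1 to 1.4 kb: between replicates 1 and 2 it was 0.40 for regions of 200 to 400 bp (n = 813), 0.51 for 600 bp (n = 1908), 0.58 for 800 bp (n = 2388) and 0.67 for 1000 to 1400 bp (n = 7354). Between replicates 1 and 3 it rose from 0.26 to 0.51 over the same widths and was 0.41 at 2200 to 3000 bp. When the authors' p-values were ranked instead, rho was 0.70, 0.64 and 0.54 for narrow regions and 0.88, 0.79 and 0.72 for the 1 to 3 kb regions, for the pairs 1 and 2, 2 and 3, and 1 and 3.

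The distance between a region's percentiles was slightly larger in narrow regions. The highest of the 3 percentiles exceeded the lowest by a median of 28.5 points in narrow regions (quartiles 15.3 and 42.9) and 26.7 points in the 1 to 3 kb regions (14.8 and 42.3). By width, the median was 30.3 points at 200 to 400 bp, 27.7 at 600 bp, 24.7 at 800 bp, 25.2 at 1000 to 1400 bp, 28.0 at 1600 to 2000 bp and 27.2 at 2200 to 3000 bp, so it did not move in one direction with width. Percentiles more than 50 points apart were found in 437 narrow regions (16.1%), against a background of 16.4%. The highest fold was a median of 1.62 times the lowest in narrow regions and 1.65 times in the wider ones. The narrow regions also spanned less of each list: the SD of their percentiles was 22.2, 20.5 and 27.0 in replicates 1, 2 and 3, against 26.3, 24.9 and 28.7 for the 1 to 3 kb regions. The part that this narrower span plays in the lower coefficients was not tested.

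The order of the replicates also differed. Replicate 1 had the highest, replicate 2 the middle and replicate 3 the lowest fold in 1686 narrow regions (62.0%), with a background of 69.8% over all shared regions and 71.6% in the 1 to 3 kb regions. Replicate 2 gave the highest fold in 471 narrow regions (17.3%), against 8.78% of the 1 to 3 kb regions, and replicate 3 in 122 (4.48%), against 4.68%.

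To read the enrichment in data that had no part in the choice, regions were selected by width in 2 lists and examined in the third. With replicate 1 held out, 3399 narrow regions of the other lists were met by a replicate 1 peak in 83.5% of cases, against 96.8% of 22014 regions 1 to 3 kb wide. With replicate 2 held out, 96.5% of 3069 narrow regions were met, against 98.8% of 21644. With replicate 3 held out, 76.9% of 7350 were met, against 76.0% of 28299. The share met was lower for narrow regions in 2 of the 3 rotations and nearly equal in the third. The mean difference was -4.91 ± 7.43 percentage points (SD, n = 3; two-sided exact sign-flip permutation test, p = 0.5), and the test cannot go below 0.25 with 3 replicates. When a held-out peak had to cover at least 50% of a region, the mean difference was 3.01 points in the other direction (exact p = 0.5), so no direction can be given for the share met.

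Where a held-out peak was present, its fold ranked higher at narrow regions in all 3 rotations. The median percentile of the held-out fold was 71.1 against 65.3 in replicate 1, 76.0 against 63.8 in replicate 2 and 56.7 against 51.4 in replicate 3. The mean difference was 7.78 ± 3.88 points (SD, n = 3; two-sided exact sign-flip permutation test, p = 0.25, the smallest it can give), which does not pass a threshold of 0.05. The 3 rotations share lists and are not independent. All 2721 members are also among the narrow regions met, 2838, 2961 and 5650 in number with replicates 1, 2 and 3 held out. With replicate 1 or 2 held out, the regions read are thus nearly the members again, and the values add little to theirs. The mean difference also rests only on regions where a held-out peak was called. The lower end of the fold in each list is higher for narrow peaks, so the rank is not independent of the width of the held-out peak. The part of that width in the difference was not tested.

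The held-out replicates differed in how narrow their own peak was. At regions that were narrow in replicates 2 and 3, 96.4% of the replicate 1 peaks were at most 600 bp wide, and at those narrow in replicates 1 and 3 this held for 92.6% of the replicate 2 peaks. At regions narrow in replicates 1 and 2, 48.8% of the replicate 3 peaks were at most 600 bp wide and 2059 (36.4%) were 1 kb or wider. The narrow held-out peaks had a median percentile of 72.1, 78.0 and 69.6 in replicates 1, 2 and 3. They numbered 2735, 2742 and 2755 and are nearly the 2721 members themselves, whose medians were 72.1, 78.0 and 69.9. These values therefore restate the members and are not a separate reading. Over all peaks, those of 1000 to 3000 bp also had lower median folds than those of at most 600 bp. Held-out peaks of 1 kb or more at the regions chosen as narrow, 55, 136 and 2059 in number, had 27.4, 31.4 and 37.0. These were below the medians of the 1 to 3 kb regions. Many sites that were narrow in replicates 1 and 2 thus lay inside wide peaks of modest fold in replicate 3, and these are not among the 2721 members.

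**Figure D3:**
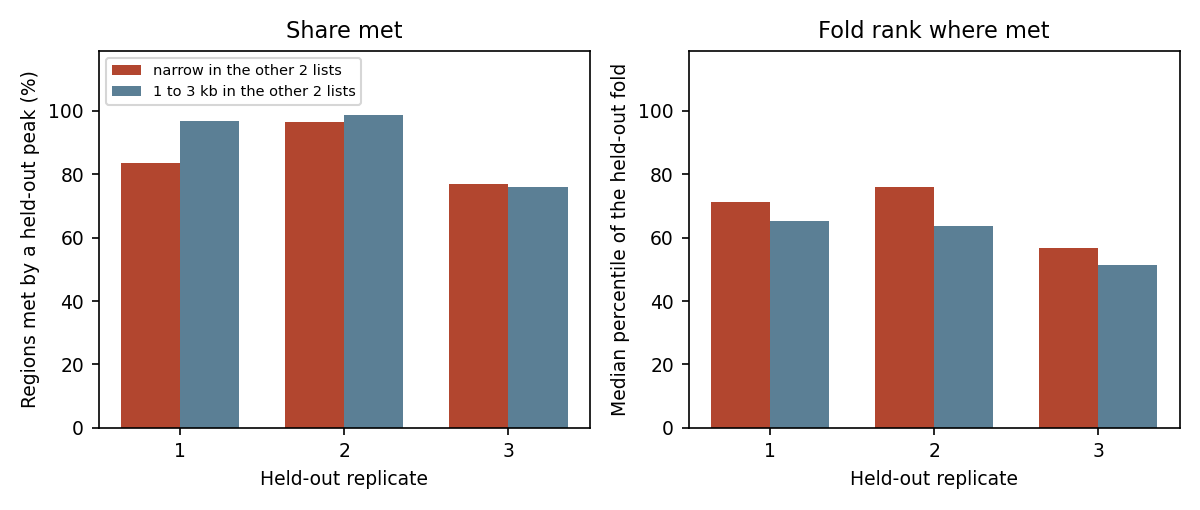
Regions chosen by width in 2 IP replicates and read in the third, for narrow regions and regions 1 to 3 kb wide; bars give the percentage met by at least 1 held-out peak (left) and, where met, the median percentile of the held-out fold within its list (right). The share met is lower for narrow regions with replicate 1 held out (83.5% against 96.8%), and the fold ranks higher at narrow regions in each of the 3 rotations.

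The density of narrow regions varied less from chromosome to chromosome than that of the wider ones, a description without a test. They numbered from 146 on chromosome 10 to 332 on chromosome 1. Per Mb of the chromosome's span, the density was highest on chromosomes 6, 3 and 1, with 7.94, 7.91 and 7.67, and lowest on chromosomes 4, 10 and 5, with 5.97, 6.29 and 6.84. The highest density was 1.33 times the lowest, against 1.57 times for the 1 to 3 kb regions, whose density ran from 43.3 per Mb on chromosome 12 to 67.7 on chromosome 3. The coefficient of variation over the 12 chromosomes was 8.71% for narrow and 14.4% for 1 to 3 kb regions.

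The order of the chromosomes differed with it. Chromosomes 11 and 12 had the fewest 1 to 3 kb regions per Mb, 46.1 and 43.3, but 7.34 and 6.87 narrow regions per Mb, both within the range of the other chromosomes. Narrow regions made up 9.67% and 9.52% of the shared regions on chromosomes 11 and 12, the highest shares, and 6.66% to 6.80% on chromosomes 1 to 4, the lowest. Chromosomes 6 to 9 had between 8.15% and 8.61%. The fold of narrow regions varied little over chromosomes: the median ran from 3.42 to 3.70 in replicate 1, from 2.69 to 2.88 in replicate 2 and from 2.17 to 2.38 in replicate 3.

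**Figure D4:**
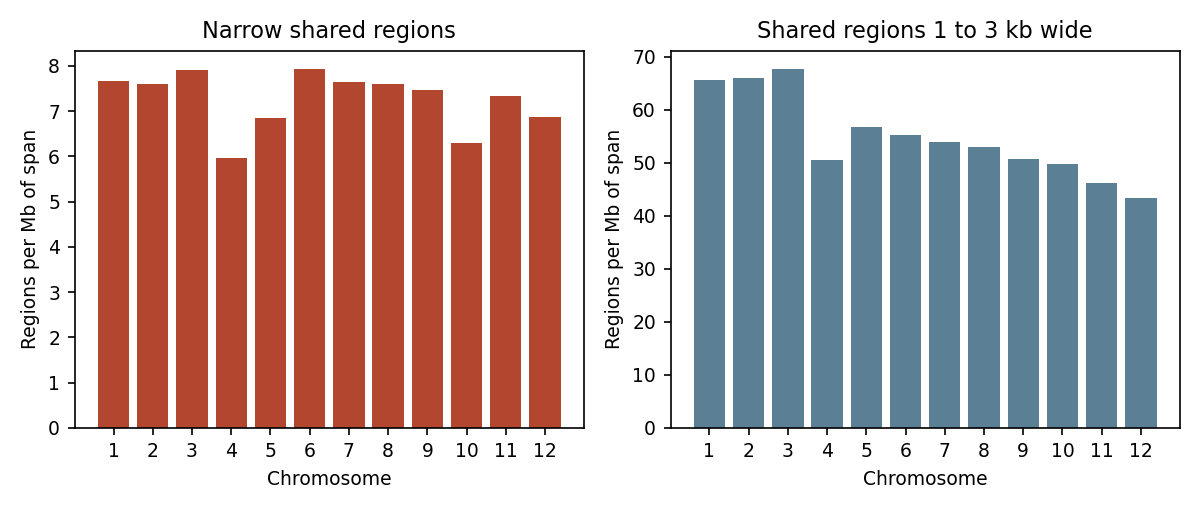
Number of narrow shared regions (left) and of shared regions 1 to 3 kb wide (right) per Mb of each chromosome's span, on axes of different height that both start at 0. Narrow regions range from 5.97 per Mb on chromosome 4 to 7.94 on chromosome 6, and the 1 to 3 kb regions from 43.3 on chromosome 12 to 67.7 on chromosome 3.

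Along the chromosomes, narrow regions were denser towards the ends. Their density was 8.67 per Mb in the outermost 1 Mb of the chromosome arms, 9.71 from 1 to 2 Mb, 9 from 2 to 5 Mb, 6.84 from 5 to 10 Mb, 6.03 from 10 to 15 Mb and 6.27 farther in. The 1 to 3 kb regions followed the same course, with 66.8, 69.2, 65.6, 54.5, 46.2 and 51.1 per Mb. Narrow regions were between 7.14% and 8.34% of all shared regions in each of these zones, so the share of narrow sites changed little with distance from the end. Their rank by fold changed little as well, from percentile 69.3 to 73.9 in replicate 1, from 76.4 to 79.1 in replicate 2 and from 67.8 to 73.1 in replicate 3.

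In the 368 whole windows of 1 Mb, the median number of narrow regions was 7 (quartiles 5 and 9) and that of 1 to 3 kb regions 58. The coefficient of variation over windows was 49.9% for narrow regions, with a mean of 7.28 per window, and 36.1% for the 1 to 3 kb regions, with a mean of 55.6. The variance, however, was 1.81 times the mean for narrow regions and 7.24 times the mean for the 1 to 3 kb regions. The 2 measures thus order the classes differently. Both depend on the mean number per window, which differs between the classes, so neither class can be called the more uneven from them. The numbers in a window had a Spearman rho of 0.48 between the classes (Pearson r 0.49), a description over windows that share the same libraries. The number of 1 to 3 kb regions followed the sequence covered by replicate 3 peaks closely (rho 0.90), and the number of narrow regions did so less (0.44). With the cover of replicate 2 the rho was 0.47 for the 1 to 3 kb regions and 0.05 for the narrow ones, and with that of replicate 1 it was 0.18 and -0.15. Every counted region holds a peak of each list, so the counts and the cover are not independent. The 1 to 3 kb regions took up 38.3 Mb and the narrow ones 1.46 Mb, so the former make up far more of the cover. The parts that this and the smaller counts of narrow regions play in the lower coefficients were not tested. Ordered by the number of all shared regions, the poorest quintile of windows held 3.86 narrow and 27.1 wider regions per window, and the richest quintile 8.97 and 79.2. Narrow regions were 8.20%, 9.15%, 8.47%, 7.15% and 6.43% of shared regions from the poorest to the richest quintile. Their number thus rose with the density of sites, and their share was lowest where sites were densest. The windows were ordered by a count that includes the narrow regions and is the base of their share. Both trends are therefore partly set by the ordering.

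The windows with the most narrow regions were 1000001 to 2000000 on chromosome 2, with 23, and 19000001 to 20000000 on chromosome 9, with 20. The first 1 Mb of chromosome 5 and the window from 3000001 to 4000000 on chromosome 6 held 19 each. No narrow region stood in 5 windows. In 4 of them replicate 3 peaks covered between 3.46% and 11.6% of the sequence. In the same 4, replicate 1 covered between 21.5% and 45.5% and replicate 2 between 18.6% and 36.7%. Replicate 3 thus had the lowest cover in each. The lowest values of replicates 1 and 2 both belonged to 14000001 to 15000000 on chromosome 2, where replicate 3 covered 7.52%. The remaining window, 31000001 to 32000000 on chromosome 2, held 77 regions 1 to 3 kb wide, and peaks of replicates 1, 2 and 3 took up 39.3%, 42.8% and 39.1% of it.

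Narrow sites stood at much the same distance from their neighbours as wider ones did. The median distance to the nearest other merged region, of any width and any replicate, was 1400 bp (quartiles 1000 and 2600), against 1600 bp (1000 and 2600) for the 1 to 3 kb regions and 1400 bp for all shared regions. These medians differ by 1 step of the grid at most. Of the narrow regions, 883 (32.5%) had a neighbour within 1000 bp, with a background of 33.3%. A distance of more than 5000 bp was found for 158 (5.81%), with a background of 4.9%. Counting only neighbours shared by all 3 replicates, the median was 2200 bp for narrow regions and 2400 bp for the 1 to 3 kb regions. The lists keep peaks at least 800 bp apart within a replicate, so shorter distances arise only between peaks of different replicates.

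**Figure D5:**
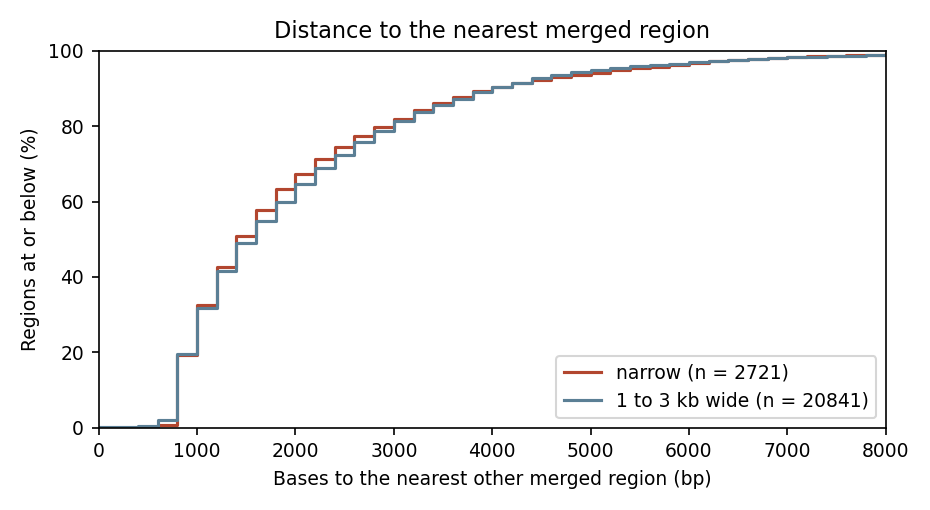
Cumulative percentage of regions by the number of bases to the nearest other merged region, drawn up to 8000 bp, for narrow shared regions and shared regions 1 to 3 kb wide. The curves nearly coincide, with medians of 1400 and 1600 bp and 32.5% and 31.8% of regions at or below 1000 bp.

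The nearest neighbour of a narrow region was itself mostly wider, with a median width of 1600 bp, the same as for the 1 to 3 kb regions. It was at most 600 bp wide in 17.6% of cases, against 15.7% for the 1 to 3 kb regions, and was shared by all 3 replicates in 63.7%, against 65.4%. Where the nearest neighbour was shared, the narrow region had the higher median percentile of fold in 1088 of 1734 pairs (62.7%), and the 1 to 3 kb regions had it in 50.5% of 13625 pairs. Peaks of at most 600 bp had higher median folds than peaks of 1600 to 2000 bp in every list, members or not. The part of width in the share of 62.7% was not tested. In the order of shared regions along a chromosome, 2257 narrow regions (82.9%) had no narrow region directly before or after them. Only 7.60% of the shared regions were narrow, so few narrow neighbours would be met in any order, and clustering was not tested. There were 204 pairs, 13 runs of 3, 3 runs of 4 and 1 run of 5, which spanned 20000 bp on chromosome 12 from 5689601 to 5709600.

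The fold of narrow regions differed little with the distance to a neighbour in replicate 1 and was lower far from one in replicates 2 and 3. Narrow regions with a neighbour within 1000 bp had median folds of 3.53, 2.83 and 2.33 in replicates 1, 2 and 3. The 158 regions more than 5000 bp from any other had 3.58, 2.66 and 2.23. The isolated sites were thus as enriched as the crowded ones in replicate 1 and less so in replicates 2 and 3. Their median percentiles were 73.2, 73.1 and 65.2, against 72.0, 79.0 and 72.5 for those with a neighbour within 1000 bp. For the 1 to 3 kb regions they were 63.1, 61.8 and 50.4 against 66.1, 64.8 and 51.6.

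The following sites were picked by rank among the 2721. Positions count from 1 on the coordinates of the lists; which genome build these use is not stated in the sources read here, so neither genes nor sequence were assigned. The first set are the 10 narrow sites whose lowest percentile over the replicates was highest, that is, the sites near the top of all 3 lists. The site on chromosome 2 from 9611001 to 9611400 led. It reached 9.60-fold enrichment in replicate 1, 6.505-fold in replicate 2 and 4.12-fold in replicate 3, with peaks of the same 400 bp in each. Its percentiles were 99.97, 99.96 and 99.80, so fewer than 1 peak in 100 was stronger in any list.

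A site on chromosome 3 (29382201 to 29382800) was enriched 8.77-, 5.89- and 4.002-fold in replicates 1, 2 and 3. Chromosome 10 held a pair of such sites. At 20202601 to 20203200 the enrichment was 8.04-, 6.01- and 3.99-fold, and at 22972001 to 22972600 it was 8.43-, 5.29- and 4.13-fold. The latter was the most isolated of the 10, at 4800 bp from the next merged region, whereas 6 of the others had one at 800 bp. A top rank in each list was thus found both close to a neighbour and far from one.

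Chromosome 6 gave another pair. One (26391201 to 26391600) showed 7.04-, 5.66- and 4.23-fold enrichment and the other (4724801 to 4725400) 9.28-, 6.49- and 3.69-fold. The set took 3 sites from chromosome 4. The one at 31334201 to 31334800 was enriched 6.89-, 4.94- and 3.73-fold, and its peak measured 200 bp in both replicate 1 and replicate 2 but 600 bp in replicate 3. The sites at 23576801 to 23577400 and 33787601 to 33788200 showed 6.82-, 7.44- and 3.80-fold and 7.03-, 5.59- and 3.51-fold enrichment. Chromosome 1 held the last of the 10, at 38360801 to 38361200, with 6.69-, 4.65- and 3.78-fold. No site of the set ranked below percentile 98.98 in any list, although the third replicate always gave the lowest fold.

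The 5 narrow sites farthest from any other merged region differed widely in strength, from near the top of a list to its low end. The most isolated (chromosome 8, 10329201 to 10329800) had its nearest neighbour at 15000 bp and was enriched 3.78-, 3.09- and 2.06-fold. Chromosome 9 held a pair of isolated sites. At 8117601 to 8118200 the neighbour was 14200 bp away and the enrichment 2.17-, 2.49- and 2.46-fold; at 1118601 to 1119200 the values were 13000 bp and 1.84-, 2.04- and 2.05-fold, at percentiles 11.3, 42.5 and 51.3. Replicate 1 gave the lowest value at both, unlike at most narrow sites. The site at 10418801 to 10419400 on chromosome 2, 13800 bp from its neighbour, was the strongest of the 5, with 4.04-, 4.78- and 3.33-fold enrichment at percentiles 83.3, 99.2 and 98.3. The remaining one (chromosome 1, 11544801 to 11545400) stood 11800 bp away and showed 3.58-, 2.83- and 2.1002-fold enrichment.

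The 5 sites at which the lists disagreed most all ranked low in replicate 3. The widest gap was at 26727401 to 26728000 on chromosome 6, where the enrichment was 4.998-, 2.37- and 1.41-fold, at percentiles 94.1, 60.3 and 3.46. A site on chromosome 7 (28448001 to 28448400) showed 5.28-, 2.99- and 1.53-fold. Chromosome 3 contributed a pair, at 26494401 to 26495000 with 4.55-, 3.33- and 1.45-fold and at 5654601 to 5655200 with 3.22-, 3.50- and 1.52-fold. The fifth was on chromosome 11 (17900401 to 17901000), with 4.203-, 3.71- and 1.56-fold. At these 5 sites the highest and lowest percentiles were 83.7 to 90.7 points apart, against the median of 28.5 over all narrow regions.

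At the other end, 5 sites ranked low in every list. The lowest (chromosome 11, 8673201 to 8673800) was enriched 2.02-, 1.59- and 1.598-fold, at percentiles 17.9, 16.3 and 13.9. A site on chromosome 8 (23840201 to 23840800) showed 2.03-, 1.52- and 1.57-fold and one on chromosome 4 (17209001 to 17209600) 1.58-, 1.70- and 1.57-fold. Chromosome 2 held a site (21246401 to 21246800) of 2.22-, 1.49- and 1.65-fold and chromosome 12 one (15559801 to 15560400) of 1.89-, 1.75- and 1.57-fold. The highest percentile that any of the 5 reached in any list was 25.7.

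One further site, singled out after its values were seen, combined a modest fold with an extreme p-value. It lay on chromosome 3 from 36413201 to 36413800, at the very end of the sequence covered by peaks, and of the 2721 it alone touched the end of a chromosome's span. The enrichment was 3.61-, 2.35- and 1.16-fold, at percentiles 74.0, 59.3 and 0.0313. The authors' p-value was printed as 0 in replicate 1 and was 2.53e-272 in replicate 2 and 8.9e-13 in replicate 3. Only 2 other narrow sites had a p-value printed as 0 in replicate 1, those on chromosomes 3 and 6 with 8.77- and 9.28-fold enrichment named above. The site at the end of chromosome 3 was thus highly significant in replicates 1 and 2 at folds near or below the median narrow site, and in replicate 3 it had the lowest fold of all 2721.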

How the data were processed

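Reads were handled with bcl2fastq 2.19, Trimmomatic 0.33, Bowtie2 2.4.1 and MACS2 2.1.2, per the submitters' processing notes, which give neither roles nor settings. Genome build, peak caller and use of the inputs are not stated in the sources read here. Chromatin was fixed in 1% formaldehyde for 30 min, per the labels' protocols. Each list was made from 1 IP replicate. The fold enrichment is a linear ratio deposited by the authors, and the pileup column is that fold times a constant (0.674, 0.603 and 0.726), so it was not used. The p-value and FDR are those deposited by the authors. Positions and lengths, per the file headers, lie on a grid of 200 bp.

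The lists held 60035, 56812 and 41474 peaks on the 12 nuclear chromosomes. They give no read counts, and the depth is unknown. A region's fold in a replicate is the highest of its peaks; percentiles are ranks among all peaks of a list; chromosome length is the last base under a peak. Held-out replicates were compared with an exact sign-flip permutation test. Region merging and distances were tested on simulated data. Results were recomputed with other width limits, neighbours and region values, with an FDR of at most 1e-20, a minimum fold of 2 or an overlap of 50% both ways, with equally long lists and without each replicate. Named regions were the 10 with the highest lowest percentile, the 5 farthest from a neighbour, the 5 with the largest percentile gap and the 5 with the lowest highest percentile. Members and rules were chosen with earlier results of these data known. Genes and sequences were not analysed here, since the gene table at hand is of another assembly. Python 3.11.15 was run with matplotlib 3.10.9, scipy 1.17.1, pandas 2.3.3 and numpy 2.4.6.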

Additional observations from a re-analysis of the deposited data

How the results depend on the processing

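No paired analysis was possible because no peak list of an input, the only other group, was among the files used; the held-out test pairs region classes within a replicate, not groups. Of 98 values recomputed under the alternatives, 55 moved by less than a set spread, 41 moved more and 2 reversed. For the share, the distance and the density, the spread was the SD of a like measure over narrow peaks of the 3 single lists. For the fold difference it was the SD over the 3 replicates, and for rho over the 3 pairs. The number of regions counted as unmoved within 1.5 times. With a spread of 3.37 points, shares of 4.99% (FDR of at most 1e-20) and 4.95% (lists of equal length) counted as unmoved. In the held-out tests only the direction could change, since the sign-flip test cannot go below 0.25. The cause was not tested for any value that moved or reversed. The number of narrow regions was 1308 with an FDR of at most 1e-20, 1465 with lists of equal length, 813 with a limit of 400 bp and 5109 with 800 bp, and 3069 to 7350 with a replicate left out; the share was 2.27% with 400 bp, 14.3% with 800 bp and 8.42% to 14.3% with a replicate left out. The median distance to a neighbour was 1700 bp with the stricter FDR, 1800 bp with a fold of at least 2, 1600 bp with 800 bp, equal lists or any replicate left out, 2200 bp with shared neighbours and 1800 bp with neighbours over 600 bp. The median fold, narrow minus 1 to 3 kb, was 0.36, 0.53 and 0.43 in replicates 1, 2 and 3 with the stricter FDR, -0.12 (reversed), 0.12 and 0.14 with a fold of at least 2, 0.55, 0.49 and 0.35 with equal lists, and 0.28 in replicate 1 with 800 bp; with a replicate left out it was 0.23 to 0.44 in replicate 1, 0.28 to 0.45 in replicate 2 and 0.21 to 0.23 in replicate 3. The rho of the fold between replicates 2 and 3 was 0.38 with the stricter FDR and 0.37 with a fold of at least 2; by p-value it was 0.70, 0.54 and 0.64 for the pairs 1 and 2, 1 and 3, and 2 and 3. The ratio of the densest to the sparsest chromosome was 1.45 with the stricter FDR, 1.37 with a fold of at least 2, 1.35 with a reciprocal overlap of 50%, 1.55 with 400 bp, 1.46 with equal lists and 1.27 to 1.37 with a replicate left out. The held-out share met reversed to 3.01 points when 50% of a region had to be covered.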

Other observations

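The sequences named ChrSy and ChrUn lie outside the 12 chromosomes and entered no comparison. ChrSy held 3 narrow regions shared by all 3 replicates among 36 shared regions, and ChrUn held 1 among 8. The strongest of these, on ChrSy from 322001 to 322600, had folds of 5.60, 6.43 and 4.06 in replicates 1, 2 and 3. The others had folds of 2.83 to 3.62 in replicate 1, 2.44 to 2.81 in replicate 2 and 1.97 to 2.50 in replicate 3.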
